A study of Homo sapiens with 4 samples.

Results

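QKI and 4 other members of the STAR family of RNA-binding proteins were followed here through an RNA immunoprecipitation made with tagged QKI7, an isoform of QKI itself. The members are the rows of the deposited table whose symbol is QKI, KHDRBS1, KHDRBS2, KHDRBS3 or SF1, and all 5 were found among 26830 gene rows. The cells were U2OS, a human osteosarcoma line, infected with the lentivirus pmiRNA1-3 x Flag-QKI7, kept as the GFP-positive cells, grown in DMEM and given no further treatment. All 4 libraries come from these cells, so the inputs carry the tagged protein too. The groups are Input (no antibody, replicates 1 and 2) and Flag-RIP (RNA recovered with a Flag antibody, replicates 1 and 2), both from cells cross-linked with ultraviolet light and sonicated. Nothing in the labels ties the replicates to separate cultures, so the spread among the 4 libraries may be partly or wholly technical. The p-values here reflect that spread, pooled over genes in part, and on the deposited scale in full. No precipitation from untagged cells and no mock antibody was analysed here.

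STAR proteins bind single-stranded RNA through a KH domain extended by flanking QUA1 and QUA2 regions, and the name stands for signal transduction and activation of RNA. QKI acts in pre-mRNA splicing, in mRNA stability and in the formation of circular RNAs, and is best known for its part in myelination. KHDRBS1 encodes Sam68, a splicing regulator and a target of Src-family kinases. KHDRBS2 and KHDRBS3 encode its relatives SLM-1 and SLM-2 (T-STAR), known above all in brain and testis. SF1 is the splicing factor that recognises the intron branch site together with U2AF. What was measured is the RNA of these genes, not their proteins.

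In GRCh38.p14, as the RefSeq gene table gives it, QKI lies on chromosome 6 from 163414718 to 163578592 and KHDRBS2 on the same chromosome from 61542670 to 62286225. KHDRBS1 lies on chromosome 1 from 32013868 to 32060850, KHDRBS3 on chromosome 8 from 135457456 to 135656516, and SF1 on chromosome 11 from 64764606 to 64778542. The values are 1 per gene, so they do not say which exon, intron or UTR the recovered fragments came from, nor which splice isoform. For QKI they do not separate the endogenous transcript from that of the Flag-QKI7 transgene, and this holds for every QKI value below. Of the other genes in the file, only the pseudogene MTRNR2L9 overlaps a member, KHDRBS2, and its TPM was at most 0.18.

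The libraries differed as wholes. TPM is a share of a library corrected for transcript length, and the near-identical 7SL RNAs RN7SL1 and RN7SL2 took 79.7% to 84.6% of it in input against 39.8% to 43.4% in Flag-RIP. Protein-coding genes took 4.98% to 6.24% and 12.3% to 13.4%, and the synthetic ERCC spike-in RNAs 2.78% to 3.89% and 18.9% to 25.6%. The median tested gene had a 3.32-fold higher mean TPM in Flag-RIP, which is more than the rise of the protein-coding share. Of the 10415 tested genes, 3386 had input means under 1 TPM. Changes are given after each library was shifted to a common median of log2(TPM + 1). These are called centred changes. Depth is unknown, because TPM keeps no read numbers. Of 8 mesenchymal and osteosarcoma markers, VIM, COL1A1, SPARC and FN1 were at or above 1 TPM in every library, while COL1A2, ALPL and SPP1 stayed below 1 in all. The sums of 3 epithelial markers reached at most 0.93 TPM and of 3 haematopoietic markers at most 0.23. Of 4 neural markers, chosen because QKI is high in neural tissue, RBFOX3 alone reached 1 TPM, and in Flag-RIP only (0.30 and 0.75 TPM in input, 4.64 and 2.11 in Flag-RIP).

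QKI stood out from its relatives in Flag-RIP. It went from 3.83 and 5.85 TPM in input to 60.7 and 42.0 TPM in Flag-RIP, a ratio of means of 10.6. Both Flag-RIP values were far above both inputs, and Flag-RIP replicate 1 was the higher of them. SF1 had 9.09 and 15.3 TPM in input and 47.2 and 43.6 in Flag-RIP, a ratio of 3.72. KHDRBS3 had 2.82 and 4.73 TPM in input and 15.6 and 13.3 in Flag-RIP, a ratio of 3.82. These 2 ratios lie a little above that of the median gene. KHDRBS1 had 6.92 and 10.7 TPM in input and 18.2 and 17.6 in Flag-RIP, a ratio of 2.03, below the median gene. KHDRBS2 was near the bottom of the scale, at 0.09 and 0.15 TPM in input and 0.47 and 0.69 in Flag-RIP. In each of the 5 genes both Flag-RIP values exceeded both inputs, as they did for 96.7% of the 10415 tested genes, so the separation in deposited TPM marks nothing about these genes.

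**Figure D1:**
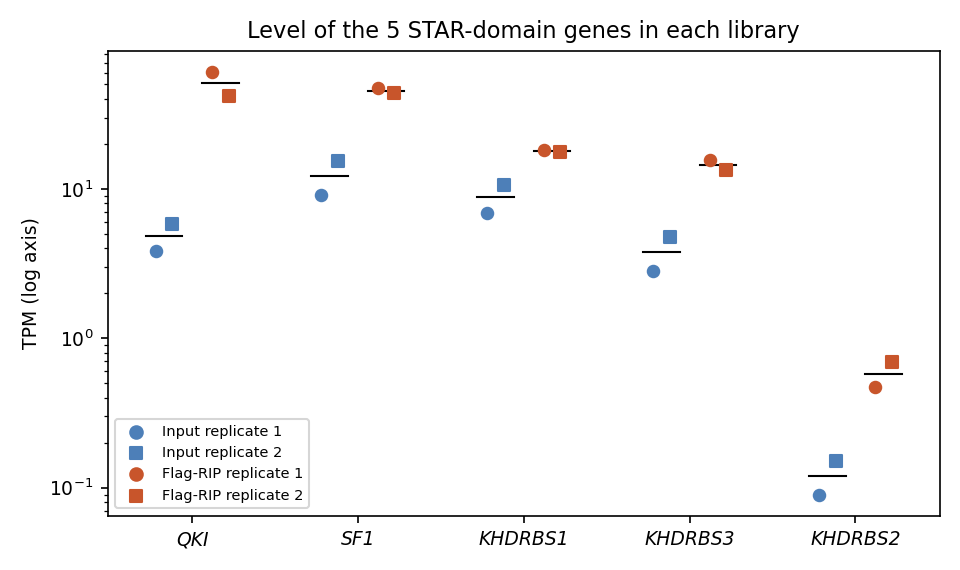
TPM on a log axis for the 5 genes in the 2 Input libraries (blue) and the 2 Flag-RIP libraries (orange), with circles for replicate 1, squares for replicate 2 and black lines at group means. The gap between the groups is widest for QKI, from a mean of 4.84 to 51.4 TPM, and among the 4 genes above 1 TPM narrowest for KHDRBS1, from 8.81 to 17.9.

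The order of the genes changed between the groups. In both inputs SF1 was highest, followed by KHDRBS1, QKI, KHDRBS3 and KHDRBS2. Across the 2 inputs the ranges of SF1 and KHDRBS1 overlapped, as did those of QKI and KHDRBS3, while QKI stayed below KHDRBS1. All 5 genes were higher in input replicate 2, and within each input the order was the same. In Flag-RIP replicate 1 QKI was highest, and in replicate 2 it lay just below SF1, so these 2 did not differ beyond their spread. KHDRBS1 and KHDRBS3 followed in both Flag-RIP libraries without overlap. QKI made up 16.8% and 15.9% of the summed TPM of the 5 genes in the inputs, and 42.7% and 35.8% in Flag-RIP. Among protein-coding genes, whose order within a library does not depend on scaling, QKI moved from the 89.9th and 90.4th percentile in input to the 98.6th and 98.1st in Flag-RIP. SF1 went from the 96.3rd and 97.1st to the 98.1st and 98.2nd percentile, and KHDRBS3 from the 86.3rd and 88.0th to the 91.3rd and 90.3rd. KHDRBS1 went the other way, from the 94.8th and 95.4th to the 92.9th and 93.3rd. KHDRBS2 kept to between the 34.8th and the 38.3rd percentile.

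Of the 5 genes 4 could be tested, since KHDRBS2, with a mean of 0.35 TPM, fell under the minimum mean of 1 TPM. The 4 tested genes exceeded 1 TPM in every library, so none passed through Flag-RIP alone. QKI, SF1 and KHDRBS3 were called higher after centring and none was called lower, where 16.4% of the tested genes were called higher and 24.4% lower (limma, Benjamini-Hochberg adjusted p under 0.05). QKI rose by 1.85 on the centred log2 scale (SE 0.18, 95% interval 1.43 to 2.26, limma adjusted p = 7.7e-04), which placed it 71st of 10415 genes. SF1 rose by 0.54 (SE 0.16, interval 0.16 to 0.91, limma adjusted p = 0.0331) and KHDRBS3 by 0.40 (SE 0.13, interval 0.11 to 0.69, limma adjusted p = 0.0378). KHDRBS1 had -0.34 (SE 0.13, limma adjusted p = 0.0728) and did not pass, although its unadjusted interval, -0.65 to -0.03, lay below 0. With 0.1 TPM added in place of 1 it was called lower, at -0.67 (limma adjusted p = 0.011), while with 5 TPM added it had 0.077 (limma adjusted p = 0.629) and with no filter on low genes 0.21 (limma adjusted p = 0.495).

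The rises of SF1 and KHDRBS3 were small beside that of QKI and less firmly measured. Their changes stood at the 89.3rd and 84.5th percentile of the tested genes, but their plain TPM ratios only at the 59.7th and 61.9th, and adding 1 TPM lowers the log ratio of lower genes more, by construction. With 0.1 TPM added instead, SF1 had 0.21 and KHDRBS3 0.23, and neither passed (limma adjusted p = 0.24 and 0.178). Leaving out input replicate 1 also ended both calls (0.39 and 0.30, limma adjusted p = 0.209 and 0.281), and so did leaving out input replicate 2 (0.69 and 0.50, limma adjusted p = 0.0502 and 0.0955). Without Flag-RIP replicate 1 that of SF1 was lost as well (0.52, limma adjusted p = 0.051). QKI stayed past the threshold without any 1 of the 4 libraries, at 1.62 to 2.07. KHDRBS3 did so without Flag-RIP replicate 1 (0.33) and without Flag-RIP replicate 2 (0.47). Leaving out either Flag-RIP library called more of the tested genes than the main fit did, so calls kept there say little. In each fit without 1 library, the group left with 1 library is assumed to vary like the other. The plain ratio of QKI stood at the 96.4th percentile.

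**Figure D2:**
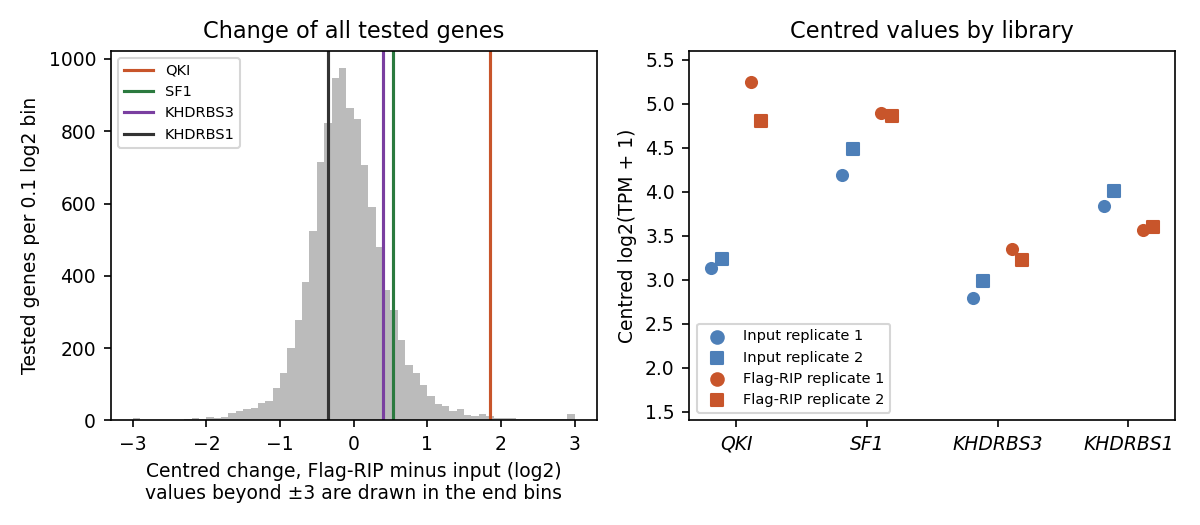
Left, number of tested genes by centred change, with vertical lines for QKI (1.85), SF1 (0.54), KHDRBS3 (0.40) and KHDRBS1 (-0.34). Right, centred log2(TPM + 1) of the same 4 genes in each library (blue Input, orange Flag-RIP, circles replicate 1, squares replicate 2), where Flag-RIP lies above both inputs for the first 3 and below them for KHDRBS1.

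On the centred log2 scale QKI had input levels of 3.13 and 3.24 and Flag-RIP levels of 5.25 and 4.81. The gap between the Flag-RIP replicates, 0.44, was larger than that between the inputs, 0.11, and both were small beside the change. SF1 was at 4.19 and 4.49 in the inputs and at 4.89 and 4.86 in Flag-RIP, and KHDRBS3 at 2.79 and 2.98 and at 3.35 and 3.22. For these genes the inputs were the more uneven pair. KHDRBS1 was at 3.84 and 4.01 in the inputs and at 3.57 and 3.60 in Flag-RIP. Flag-RIP lay above both inputs for 29.4% of the tested genes on this scale, QKI, SF1 and KHDRBS3 among them, and below both for 47.3%, as for KHDRBS1.

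The ratio of 2 members within a library does not depend on how the library is scaled, and 6 such ratios were compared between the groups. QKI had 0.553 and 0.547 times the TPM of KHDRBS1 in the inputs and 3.33 and 2.39 times in Flag-RIP, a 5.13-fold shift of the geometric mean. QKI over SF1 went from 0.421 and 0.382 to 1.29 and 0.964, a 2.78-fold shift, and QKI over KHDRBS3 from 1.36 and 1.24 to 3.90 and 3.16, a 2.71-fold shift. In these 3 ratios the groups did not overlap, and the SD between replicates was at most 0.34 log2 units against shifts of 1.44 to 2.36. SF1 over KHDRBS1 went from 1.31 and 1.43 to 2.59 and 2.48, and KHDRBS3 over KHDRBS1 from 0.408 and 0.442 to 0.853 and 0.756, again without overlap. SF1 over KHDRBS3 had input ratios of 3.22 and 3.24 and Flag-RIP ratios of 3.04 and 3.28, so the shift of this ratio, -0.03 log2 units, was within the spread between replicates. An exact permutation test over 2 against 2 libraries, two-sided, cannot give less than p = 0.33. That was the value for 5 ratios (0.40 after Benjamini-Hochberg adjustment over 6), and SF1 over KHDRBS3 had p = 1 in the same exact test.

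**Figure D3:**
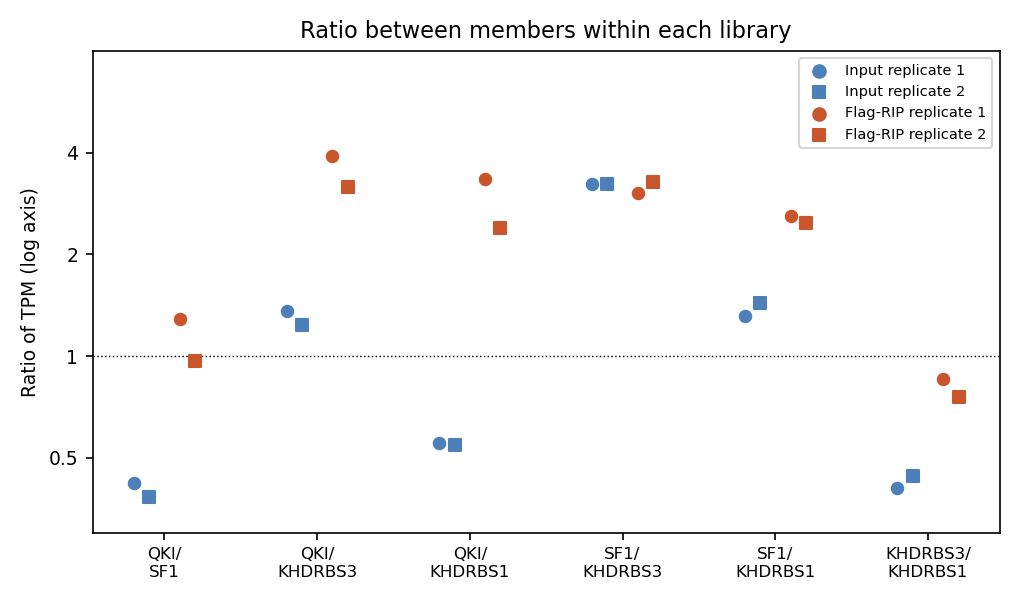
Ratio of the TPM of 2 members within each library, on a log axis, for 6 pairs (blue Input, orange Flag-RIP, circles replicate 1, squares replicate 2, dotted line at a ratio of 1). The 3 ratios with QKI on top and the 2 others over KHDRBS1 are higher in both Flag-RIP libraries, while SF1 over KHDRBS3 is between 3.04 and 3.28 in all 4.

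The direction of change depended on the reference for SF1, KHDRBS3 and KHDRBS1, while QKI lay above 0 on each. None of these references gives absolute amounts. As deposited, KHDRBS1 had a change of 0.97 (limma adjusted p = 0.00337), while 92.3% of the tested genes were called higher on this scale. The deposited fit had infinite prior degrees of freedom, against a median of 5.72 in the centred fit. Its p-values thus rest on the variance trend over all genes, not on a gene's own spread. Those degrees of freedom were not recorded for the other scales below. Per 1000000 TPM of protein-coding genes, QKI went from 77.0 and 93.7 to 453 and 341, and SF1 from 183 and 245 to 352 and 354. KHDRBS3 went from 56.7 and 75.8 to 116 and 108 on this scale. With the protein-coding totals set equal, 47.5% of all tested genes were called higher and 6.64% lower. KHDRBS1 had 139 and 171 per 1000000 TPM of protein-coding genes in the inputs and 136 and 143 in Flag-RIP, where the groups overlapped. Per 1000 TPM of ERCC spike-ins, QKI had 0.138 and 0.150 TPM in the inputs and 0.322 and 0.164 in Flag-RIP, a log2 change of 0.65 that did not pass (limma adjusted p = 0.0898). The replicates of Flag-RIP were far apart here, and the second lay close to the inputs. SF1 had 0.327 and 0.394 in the inputs and 0.250 and 0.170 in Flag-RIP per 1000 TPM of spike-ins, KHDRBS3 0.102 and 0.122 and then 0.0824 and 0.0519, and KHDRBS1 0.249 and 0.275 and then 0.0965 and 0.0687. On the spike-in scale KHDRBS1 fell by 1.59 (limma adjusted p = 1.5e-05) and KHDRBS3 by 0.70 (limma adjusted p = 0.043). SF1 had -0.78 (limma adjusted p = 0.0501), and 60.5% of all tested genes were called lower. The labels do not say at which step the spike-ins were added or how much, and their part in these values was not tested.

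**Figure D4:**
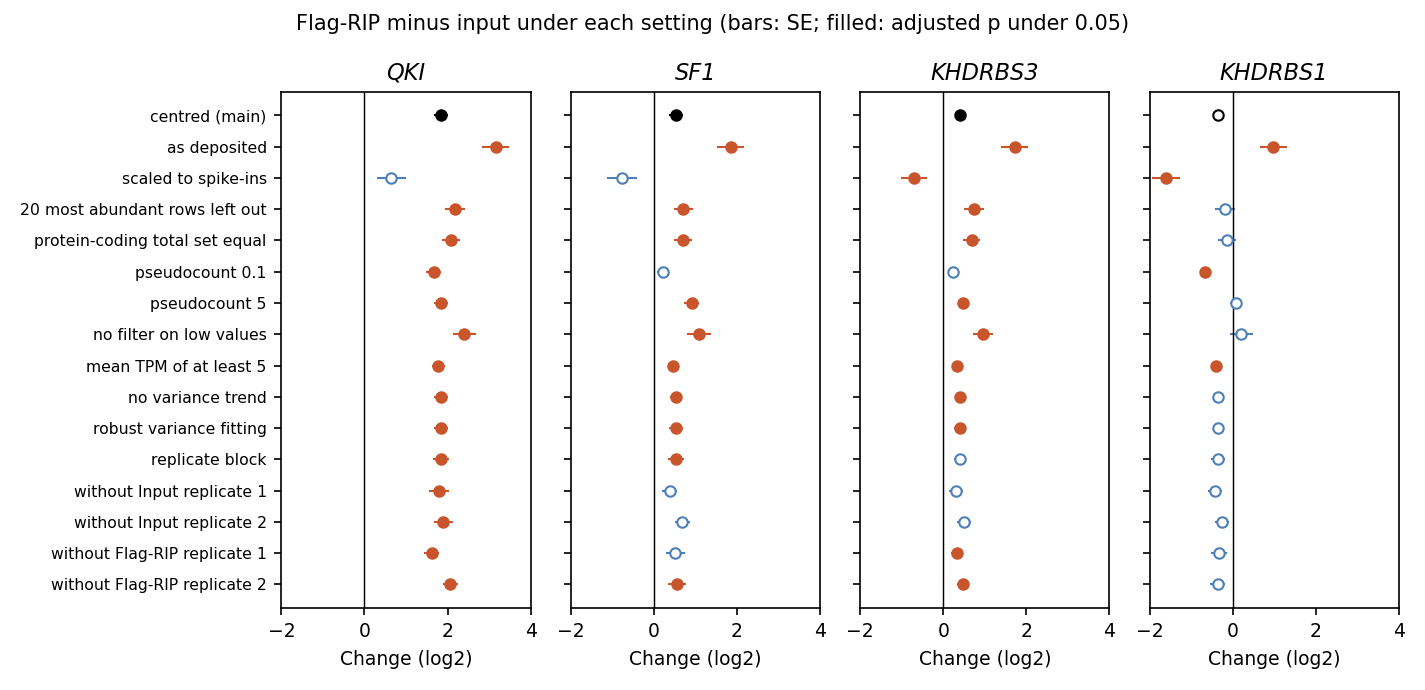
Change of QKI, SF1, KHDRBS3 and KHDRBS1 between Flag-RIP and input (log2, with its SE) under the centred main setting (black) and 15 alternatives, filled where the adjusted p is under 0.05. QKI lies above 0 throughout and misses the threshold on the spike-in scale, SF1 and KHDRBS3 are below 0 on that scale alone, and KHDRBS1 lies on either side of 0.

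Some transcripts had nearly the same profile over the 4 libraries. Likeness was measured as the Euclidean distance between log2(TPM + 1) values centred on each gene's own mean, among 3996 genes with a mean of at least 5 TPM. Nearest to QKI were ZFP36L1, an mRNA decay factor, at a distance of 0.13, and PREX1, an exchange factor for Rac, at 0.14. They were followed by ANXA2, the gene of annexin A2, and VEZF1, a zinc finger transcription factor, both at 0.15, and HMGA2, a chromatin architectural protein, at 0.16. The median distance from QKI was 1.85. The minimum of 5 TPM is a mean over all 4 libraries. PREX1, VEZF1 and HMGA2 were below 5 TPM in both inputs and met it only through their Flag-RIP values. HMGA2 had 0.44 and 0.93 TPM in input and 15.2 and 10.2 in Flag-RIP. ZFP36L1 had input values of 14.3 and 21.4 TPM and Flag-RIP values of 220 and 140, and PREX1 had 2.15 and 3.28 and then 40.9 and 24.8. Both were higher in Flag-RIP replicate 1 than in replicate 2, as QKI was, which follows from choosing them by closeness to QKI over these values. The nearest profiles to the others lay closer, and so did the median gene, at 0.55 to 0.65. They were PLK1, COASY and C8orf82 for KHDRBS1 (0.03 each), KLHL29, MIDN and TRAK1 for KHDRBS3 (0.02 to 0.03), and TOP3B, VPS9D1 and CALM3 for SF1 (0.02 to 0.05). Of these, KLHL29, MIDN, TRAK1, TOP3B and VPS9D1 also met the minimum only through Flag-RIP. With 4 libraries in 2 groups, such closeness is a description of these values.

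Genes outside the STAR family that also carry KH domains went both ways. Of 38 genes listed as such 30 were tested, of which 5 rose, 7 fell and 18 did not pass after centring. That is 16.7% higher and 23.3% lower, near the 16.4% and 24.4% of all tested genes, and the median change was -0.03 against -0.11. IGF2BP2, which binds m6A-modified mRNA, had the largest rise of the list, 2.51 (6.35 and 10.8 TPM in input, 173 and 99.9 in Flag-RIP; limma adjusted p = 8.7e-04) and was the only one of the 30 to exceed QKI. KIAA0907, now KHDC4, rose by 0.81 and PCBP2, a poly(C)-binding protein, by 0.78. PNO1, a ribosome assembly factor, fell by 0.97, RPS3, a protein of the small ribosomal subunit, by 0.92, and EXOSC1, an exosome subunit, by 0.87. EXOSC1 is counted in this list and in its shares, although it has no KH domain. Beside PCBP2, its relatives PCBP1 and PCBP4, named after their values were seen, both had -0.23 without passing.

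SF1 acts with U2AF and the U2 snRNP at the branch site, and the genes of that step were mostly not called. All 30 listed genes were tested. One rose, 6 fell and 23 did not pass, which is 3.33% higher and 20.0% lower where all tested genes had 16.4% and 24.4%. The median was -0.15 against -0.11. The one that rose was DHX15, a helicase that takes spliceosomes apart, at 0.33. SF3B5, a subunit of the SF3b complex, fell by 1.92 (18.4 and 18.5 TPM in input, 10.4 and 13.5 in Flag-RIP; limma adjusted p = 9.5e-04), PUF60 by 0.81 and SUGP1 by 0.64. No gene of the list had a change above that of SF1, the highest being the 0.33 of DHX15. The partners of SF1 in binding the branch site region, U2AF2 and U2AF1, had -0.06 and -0.09 without passing, and were singled out after their values were seen. With the protein-coding totals set equal, 8 of the 30 were called higher and 2 lower, where 47.5% and 6.64% of all tested genes were.

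Of 22 genes for kinases, adaptors and other partners of Sam68, 19 were tested, of which 3 rose and 2 fell, with a median of 0.10. Among those that rose were MAPK3, a kinase, with a change of 0.43, and RASA1, a GTPase-activating protein of Ras, with 0.36. PRMT1, the main arginine methyltransferase of Sam68, fell by 0.93 and CDK1 by 0.41. Of 25 alternative splicing regulators 19 were tested, of which 5 rose and 1 fell, with a median of 0.10. ELAVL1, which encodes HuR, rose by 0.68, RBM5 by 0.61 and TIA1 by 0.59, while RALY fell by 0.41. The shares called higher in these 2 lists, 15.8% and 26.3%, stand beside 16.4% of all tested genes, and the shares called lower, 10.5% and 5.26%, beside 24.4%. RASA1 and TIA1 had input means under 1 TPM and passed the filter through their Flag-RIP values, as did 4 and 5 of the 19 tested genes of the 2 lists in all. In the KH-domain and branch-site lists this held for 5 and 6 of 30, and over the whole table for 3386 of 10415, so the counts of these lists support no statement about them. Of the 30 calls over the 4 lists, 2 remained without input replicate 1, those of IGF2BP2 and SF3B5, and 11 remained without input replicate 2. Over all tested genes the calls went from 4248 to 654 and to 1734 in the same 2 fits. Leaving out either Flag-RIP library called more of the tested genes than the main fit did, so calls kept in those fits say little about the list genes.

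**Figure D5:**
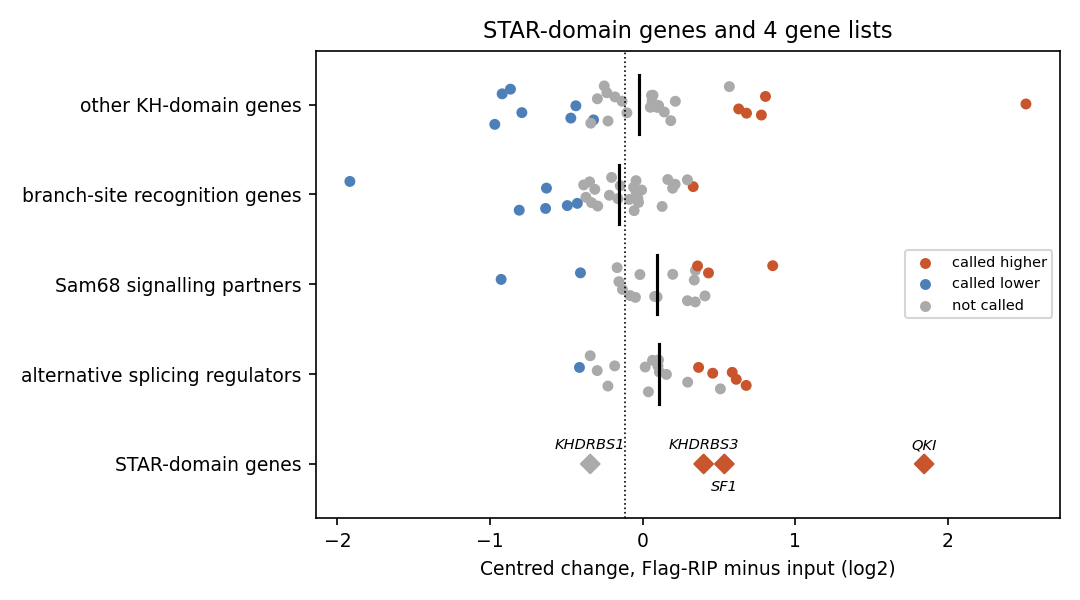
Centred change of the 4 tested STAR-domain genes (diamonds) and of the tested genes of 4 lists (points, spread vertically at random), coloured by call, with black bars at list medians and a dotted line at the median of all tested genes (-0.11). QKI, at 1.85, lies above every listed gene but IGF2BP2, at 2.51.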

How the data were processed

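The values deposited by the authors are TPM, in 1 column for each of the 2 Input and 2 Flag-RIP libraries. The submitters' processing notes name STAR, RSEM (version 1.2.31) and the GRCh38 build. Which annotation was used, how rows were filtered and how strand was handled remain not given in the sources used here. Libraries were prepared with a stranded mRNA kit, per the labels' protocols.

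ERCC rows were not tested. The 10415 genes with a mean of at least 1 TPM were fitted on log2(TPM + 1), each library shifted to a common median, with limma (version 3.58.1, under R 4.3.3; eBayes with a trend, 2 residual degrees of freedom, Benjamini-Hochberg adjustment over all tested genes, two-sided, threshold 0.05). The procedure was tested on simulated data, with a shared shift added to the log2(TPM + 1) values themselves. That could not show how adding 1 TPM acts on a shift in TPM. The members and lists were chosen with earlier results of these data known. Named genes are the members, up to 3 increases and 3 decreases past the threshold per list, and the nearest profiles (5 for QKI, 3 for the others), apart from a few that the text marks. One gene that the rule names is not reported here. Markers were listed to check the cell line. One symbol (KHDC4) was matched through its older name. Protein-coding rows (18795) were identified through the RefSeq gene table. Alternatives were other scalings, pseudocounts, filters and variance fits, a replicate block and leaving out each library.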

Additional observations from a re-analysis of the deposited data

How the results depend on the processing

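The rise of QKI was lost on 1 of 15 alternatives, the scaling to spike-ins (0.65). There SF1 and KHDRBS3 turned to -0.78 and -0.70, and KHDRBS1 passed at -1.59. With a pseudocount of 0.1, SF1 (0.21) and KHDRBS3 (0.23) no longer passed and KHDRBS1 did (-0.67), as it did with a mean TPM of at least 5 (-0.41). KHDRBS1 was above 0 as deposited (0.97), with no filter (0.21) and with a pseudocount of 5 (0.077). The last 2 did not pass. With the replicate block, KHDRBS3 kept its change of 0.40 and did not pass (limma adjusted p = 0.0519), while QKI and SF1 stayed past the threshold. Same-numbered libraries deviated together at r = -0.07 over genes. This value rests on 1 difference within each group, so it cannot decide whether same-numbered libraries were paired. Leaving out 1 library gave 1.62 to 2.07 for QKI, 0.39 to 0.69 for SF1, 0.30 to 0.50 for KHDRBS3 and -0.43 to -0.26 for KHDRBS1. The log2 shift of SF1 over KHDRBS3 was 0.14 with 1 added to each TPM and -0.090 to 0.020 when 1 library was left out. The other 5 ratios kept their direction.

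Counts called higher and lower are given in the order KH-domain, branch-site, Sam68 partner and splicing regulator genes. As deposited they were 27 and 0, 28 and 0, 18 and 0, and 19 and 0. Scaled to spike-ins they were 1 and 22, 0 and 25, 0 and 14, and 0 and 11. With the 20 most abundant rows left out they were 9 and 1, 6 and 2, 12 and 1, and 12 and 0. With the protein-coding totals set equal they were 10 and 1, 8 and 2, 14 and 1, and 12 and 0. A pseudocount of 0.1 gave 4 and 9, 0 and 9, 2 and 3, and 4 and 3. A pseudocount of 5 gave 10 and 8, 3 and 7, 7 and 2, and 5 and 1. No filter gave 15 and 5, 10 and 1, 14 and 1, and 13 and 6. A mean TPM of at least 5 gave 5 and 2, 0 and 6, 2 and 1, and 3 and 3. The whole table moved with these settings. Of all tested genes, 42.8% were called higher and 6.54% lower with the 20 most abundant rows left out, 23.8% and 43.6% with no filter, 22.6% and 33.4% with a pseudocount of 5, and 92.3% and 0.317% as deposited. Without a variance trend, and with the replicate block, the single branch-site increase was lost (0), and every other list count was within 1.5 times the main one. Leaving out 1 library gave 1 to 6 higher and 0 to 7 lower KH-domain genes, 0 to 5 higher and 1 to 9 lower branch-site genes, 0 to 7 higher and 0 to 2 lower Sam68 partner genes, and 0 to 9 higher and 0 to 2 lower splicing regulator genes, with the lowest counts without input replicate 1.

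Setting the protein-coding totals equal was chosen after seeing the data. Except where a setting fixes it by construction (fewer genes tested, fewer samples), the cause of these changes was not tested. TPM holds no depth, so how far read numbers limit these values is unknown.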
